A study of Arabidopsis thaliana with 5 samples.

Results

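The 60 min peak is a set of 73 probe sets, of 8247 measured, that read highest on the array of seedlings held for 60 min in hypoxia. A probe set is a group of short DNA probes on an Affymetrix array that together measure 1 transcript or a few similar ones. A member had a level of 6 or more at 60 min of hypoxia on the log2 scale, and lay at least 0.7 above each of the other 4 arrays. Its 30 min reading also had to be less than 0.3 above the higher of both air arrays. The members were thus chosen by the deposited values of all 5 arrays, so the peak itself is a description and carries no test. The rule was met by 79 probe sets, of which 6 were left out by name: MCCA, WRKY53, PDC2, AT4G27450, AT3G15450 and the peroxidase gene AT5G39580. Of the 73 members, 23 could be named and represent 22 genes, and 50 have no gene name here.

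The seedlings were Arabidopsis thaliana of ecotype Col-0, 14 days old, grown on vertical agar plates at 22 °C with 16 h of light a day, and used whole. Hypoxic seedlings were enclosed in plastic bags and flushed with 0.2% oxygen and 99.8% nitrogen for 30, 60 or 240 min, and air controls were taken at 0 and 240 min. The labels name no mutant or transgene. Each treatment and time has 1 array, so no value below has a replicate error, and the 30 and 60 min arrays have no air array of their own time.

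Plants sense falling oxygen through ethylene response factors of group VII, which are degraded by the N-degron pathway while oxygen is present and switch on fermentation and other low-oxygen genes when it is not. As respiration slows, cells also meet an energy shortage, which the kinase SnRK1 answers by turning on genes for the use of stored carbon, amino acids and lipids and by restraining growth. Messenger RNAs of such responses can rise and decline within hours, so a time course can catch some of them at a single time only.

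Before the members, some features of the arrays bear on them. Green shoot tissue was represented by 4 of 10 markers, with LHCB4.1 and RCA at 13.0 to 14.7 on all arrays and LHCB4.3 at 4.77 to 5.40, while 0 of 7 root markers were measured by a named probe set. The 30 min hypoxic array read the ubiquitin and GAPDH control probe sets 1.51 to 1.78 above 0 min air, whereas on the 60 min array they differed by -0.60 to 0.31. The 240 min hypoxic array had a GAPDH 3′ reading 1.97 above the 5′ one, against -0.23 to 0.69 on the other 4, and 303 of 4697 otherwise dim probe sets (under 5.5 on the other arrays) were higher there than in 240 min air by 1 or more. Applied without that array, the rule gave 90 probe sets; fewer conditions can only add to the set, so this does not measure how the array bears on the members.

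At 60 min the members were above the mean of both air arrays by 0.73 to 3.22 on the log2 scale, with a median of 1.24, which is 2.36-fold. Over all 8247 probe sets the same median was -0.0039. Of the members, 55 of 73 were higher than 0 min air by 1 or more, where 2.37% of the probe sets with a level at or above the array median were, and 0 were lower by as much, where 2.26% were. The rule used this contrast, so nothing follows from these shares. The members' own gaps, from the 60 min reading to the highest of the other 4 arrays, ran from 0.70 to 2.35 with a median of 1.06, and 40 members had a gap of 1 or more.

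**Figure D1:**
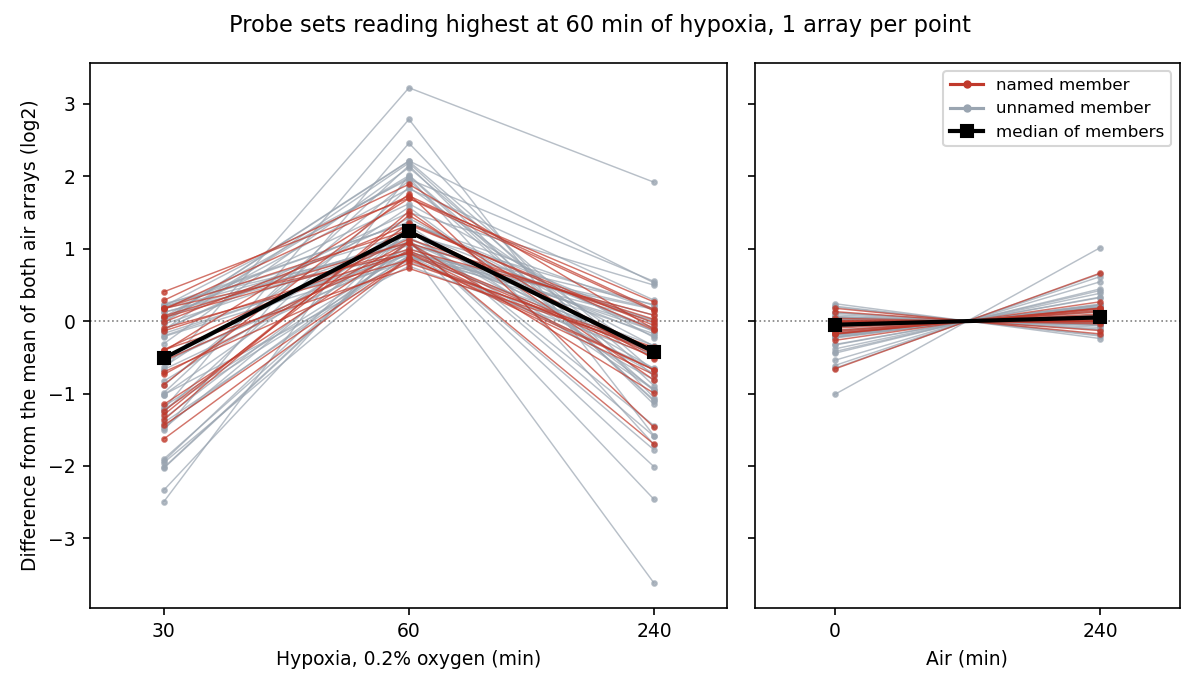
The vertical axis gives each member's difference from the mean of both air arrays (log2), by minutes of hypoxia in the left panel and minutes of air in the right one. Red lines are the 23 named members, grey lines the 50 unnamed ones and black squares the median of all 73, which was -0.51 at 30 min, 1.24 at 60 min and -0.42 at 240 min of hypoxia.

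The carbon and amino acid enzymes among the members came from different pathways, and each read highest at 60 min. F2KP makes and breaks fructose 2,6-bisphosphate, a signal that holds back sucrose synthesis. It read 6.76, 8.26 and 7.10 at 30, 60 and 240 min of hypoxia, against 7.46 in both air arrays, so that only the 60 min array lay above air. AT2G31390, of the fructokinase family that phosphorylates fructose, read 7.94, 9.28 and 7.90 in hypoxia, against 7.81 and 8.10 at 0 and 240 min of air. Its 30 and 240 min hypoxic readings lay between both air readings.

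AT2G31810 encodes a regulatory subunit of acetolactate synthase, the enzyme that opens the synthesis of branched-chain amino acids. It read 7.14, 8.74 and 6.74 in hypoxia, against 6.78 and 6.93 in air, and its difference of 1.89 from mean air at 60 min was the largest among the named members. HPR is the peroxisomal hydroxypyruvate reductase of photorespiration, which recovers carbon from the oxygenation reaction of Rubisco. It read 9.69, 12.19 and 10.65 in hypoxia, against 11.15 and 11.48 in air, and was thus below both air arrays at 30 and at 240 min. On the same 30 min array the 4 measured green shoot markers were at -1.45 to -0.29 against 0 min air, with a median of -1.07, and the part of this in the reading of HPR was not tested. At 60 min the markers' median was 0.09 above 0 min air, although PSAN, a subunit of photosystem I, was at -1.43.

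**Figure D2:**
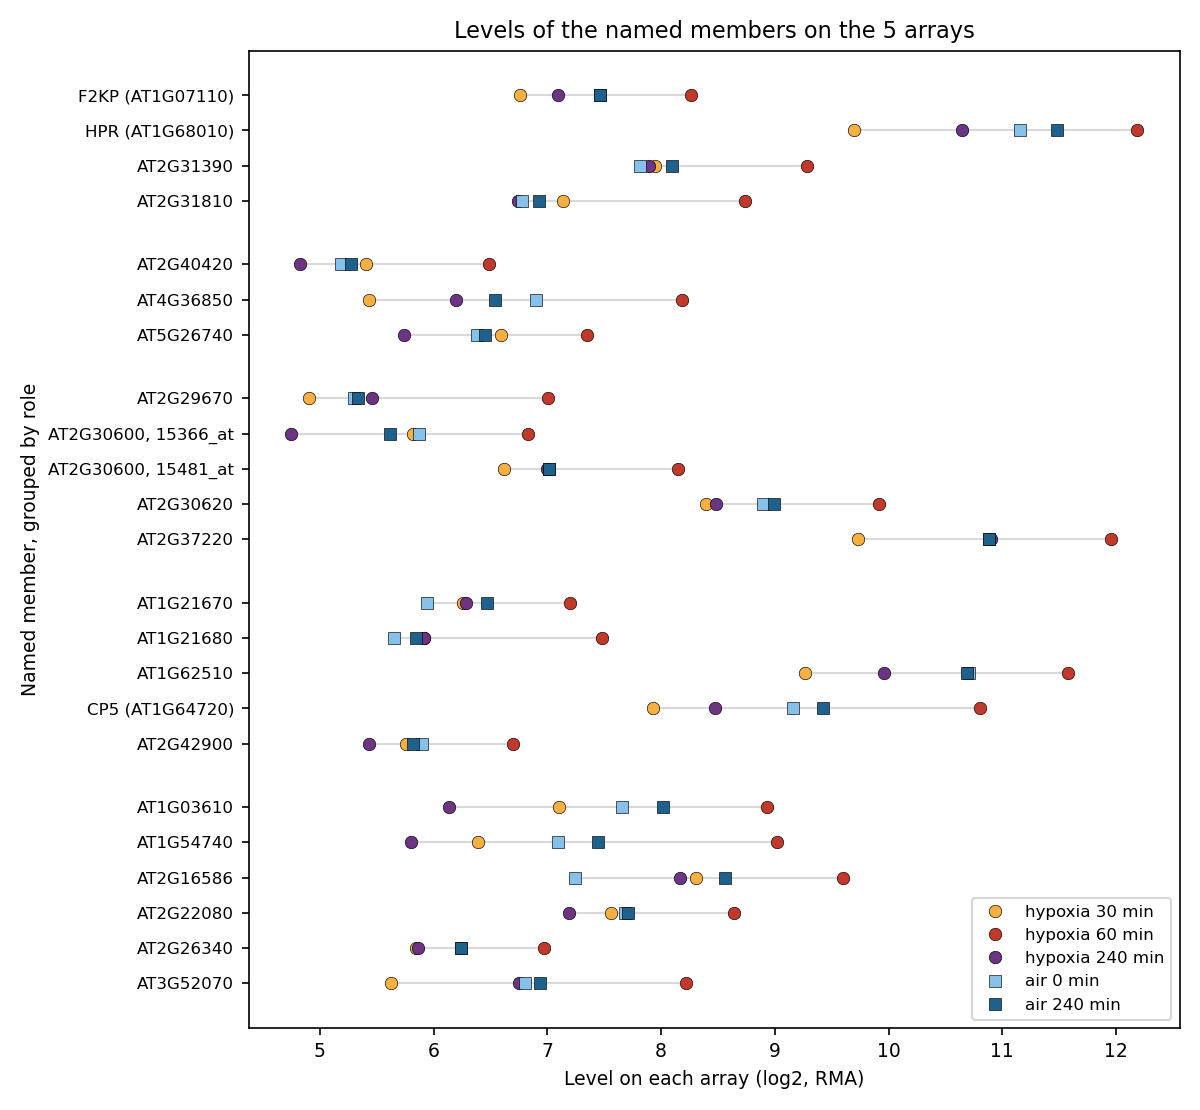
Levels of the 23 named members (log2, horizontal axis), 1 row per probe set and 1 point per array, with circles for hypoxia and squares for air. The 60 min circle lies furthest right in each row, as the rule asks, while the 30 and 240 min circles lie left of the air squares in some rows (HPR, CP5, AT1G62510) and among them in others (AT2G31390); equal air values overlap.

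Membrane proteins were represented by 3 members. AT4G36850 encodes a protein with PQ-loop repeats, a fold shared with lysosomal and vacuolar carriers. It read 5.43, 8.18 and 6.19 in hypoxia, against 6.90 and 6.54 in air, a difference of 2.75 between the 60 and 30 min arrays. AT2G40420, of the amino acid transporter family, read 5.41, 6.49 and 4.83 in hypoxia, against 5.18 and 5.28 in air. AT5G26740, a DUF300 protein related to organic solute transporters, read 6.59, 7.35 and 5.74 in hypoxia, against 6.38 and 6.45 in air. AT2G40420 and AT5G26740 were thus just above both air arrays at 30 min and below both at 240 min, whereas AT4G36850 was below both at 30 min and at 240 min.

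The members with nuclear, RNA or protein-binding roles included a linker histone, the H1 variant encoded by AT2G30620, which binds DNA between nucleosomes. Its levels were 8.40, 9.92 and 8.48 in hypoxia, against 8.90 and 8.99 in air. AT2G37220 encodes a chloroplast ribonucleoprotein that binds plastid transcripts, and it read 9.73, 11.96 and 10.91 in hypoxia, against 10.88 in both air arrays. The 240 min hypoxic level of AT2G37220 was thus 0.02 above air, and its 30 min level differed from air by -1.15. AT2G29670, a protein with tetratricopeptide repeats, read 4.90, 7.01 and 5.46 in hypoxia, against 5.30 and 5.33 in air.

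AT2G30600, which encodes a protein with a BTB/POZ domain, is the only named gene with more than 1 member probe set; whether any of the 50 unnamed members share a gene is not known here. The brighter one read 6.62, 8.15 and 6.997 in hypoxia, against 7.01 in both air arrays. The dimmer one read 5.81, 6.83 and 4.75 in hypoxia, against 5.87 and 5.61 in air. Both put 60 min above mean air by about the same amount, 1.13 and 1.08, but at 240 min they differed from 240 min air by -0.02 and -0.86, so the later reading of this gene depends on the probe set.

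Of the secreted and lipid-binding proteins, AT1G62510 belongs to the family of lipid transfer proteins and protease inhibitors, and read 9.26, 11.58 and 9.96 in hypoxia, against 10.71 and 10.69 in air. AT2G42900, of the plant basic secretory protein family, read 5.76, 6.70 and 5.43 in hypoxia, against 5.89 and 5.82 in air. The first was well below air at 30 min and the second close to it.

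CP5 encodes a protein of the polyketide cyclase and lipid transport superfamily. Its member probe set read 7.93, 10.81 and 8.48 in hypoxia, against 9.16 and 9.42 in air. A second probe set of CP5, which is no member, read 9.29, 10.57 and 11.15 in hypoxia, against 10.79 and 10.87 in air. The probe sets therefore disagree on the time of the highest reading, and the peak of CP5 rests on 1 of them. Both carry the suffix _s_at, which Affymetrix gives to probe sets that can match several similar transcripts.

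AT1G21670 and AT1G21680 encode proteins with a domain like the N-terminal part of the peptidase DPP6, and they are next to each other on chromosome 1 in the TAIR10.1 gene table. AT1G21680 read 5.91, 7.48 and 5.91 in hypoxia, against 5.65 and 5.85 in air. AT1G21670 read 6.26, 7.20 and 6.28 in hypoxia, against 5.94 and 6.47 in air. Both were close to air at 30 and 240 min, and AT1G21670 stood at 0.72 above 240 min air and 1.26 above 0 min air at 60 min. A second close pair was AT2G30600 and AT2G30620 on chromosome 2, with 1 protein-coding gene between them.

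The 6 remaining named members included both whose 240 min hypoxic reading was lower than 240 min air by 1 or more. AT1G54740, a DUF3049 protein, read 6.39, 9.02 and 5.80 in hypoxia, against 7.09 and 7.44 in air, and was at -1.65 against 240 min air at 240 min. AT1G03610, a DUF789 protein, read 7.10, 8.93 and 6.14 in hypoxia, against 7.66 and 8.02 in air, and was at -1.88 by the same measure. AT3G52070 read 5.63, 8.22 and 6.75 in hypoxia, against 6.80 and 6.94 in air, and was low at 30 min but at -0.19 against 240 min air at 240 min.

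AT2G22080 read 7.56, 8.64 and 7.19 in hypoxia, against 7.68 and 7.70 in air. AT2G26340 read 5.84, 6.97 and 5.87 in hypoxia, against 6.24 in both air arrays. For both genes the hypoxic arrays at 30 and 240 min lay below both air arrays. AT2G16586 read 8.31, 9.60 and 8.17 in hypoxia, against 7.24 and 8.57 in air. It was the only named member whose air arrays differed by 1 or more, and its 60 min difference was 2.36 against 0 min air but 1.04 against 240 min air.

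Among the 50 unnamed members the difference from mean air at 60 min ran from 0.76 to 3.22, with a median of 1.26. The following 4 were chosen after their values were seen. Probe set 19178_at had the largest gap of all members, with 7.85, 11.81 and 8.30 in hypoxia, against 9.47 and 9.25 in air. Probe set 15422_at read 4.87, 8.77 and 7.47 in hypoxia, against 5.42 and 5.68 in air, and was the only member still higher than 240 min air by 1 or more at 240 min. At the other end, 16018_s_at read 8.15, 10.60 and 5.98 in hypoxia, against 9.55 and 9.65 in air. Probe set 17832_at read 5.04, 9.04 and 4.67 in hypoxia, against 5.24 and 7.26 in air, so its air arrays differed by 2.03.

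The members were unlike one another in their other hypoxic readings. In 25 of 73, named genes AT2G31390, AT2G31810 and AT2G42900 among them, both the 30 and the 240 min hypoxic arrays lay within 0.5 of mean air. The same share over all probe sets was not counted, and the rule bounded both readings from above. This count therefore only describes the members and does not set them apart from other probe sets. At 30 min 21 of the 71 members with a level at or above the array median were lower than 0 min air by 1 or more, or 29.6%, where 5.31% of all such probe sets were, and 1 was higher by as much, where 5.2% were. The rule capped the 30 min reading, so this split is not independent of it. The lower ones included HPR, AT1G62510, AT4G36850, AT3G52070, AT2G37220 and CP5. The median difference from mean air at 30 min was -0.51 over the members, and -0.04 over the 2152 probe sets at 6 or more at 60 min.

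At 240 min of hypoxia 17 of 71 members were lower than 240 min air by 1 or more, or 23.9%, where 3.52% of the probe sets with enough level were, and 1 was higher by as much, where 9.68% were. The median over the members was -0.40, and that over the 2152 probe sets at 6 or more at 60 min was -0.05. The rule set the 60 min reading against both of these arrays, so these counts describe the members and are no separate finding. In all, 8 members were lower by 1 or more at both 30 min (against 0 min air) and 240 min (against 240 min air), a share of 38.1% of the 21 and 47.1% of the 17; all 8 are unnamed. Over the 2152 probe sets at 6 or more at 60 min, 51 were lower at both times, a share of 22.8% of the 224 lower at 30 min and 33.6% of the 152 lower at 240 min. Below both air arrays were 51 members, or 69.9%, at 240 min and 49, or 67.1%, at 30 min, where 50.5% and 46.7% of the probe sets at 6 or more at 60 min were.

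**Figure D3:**
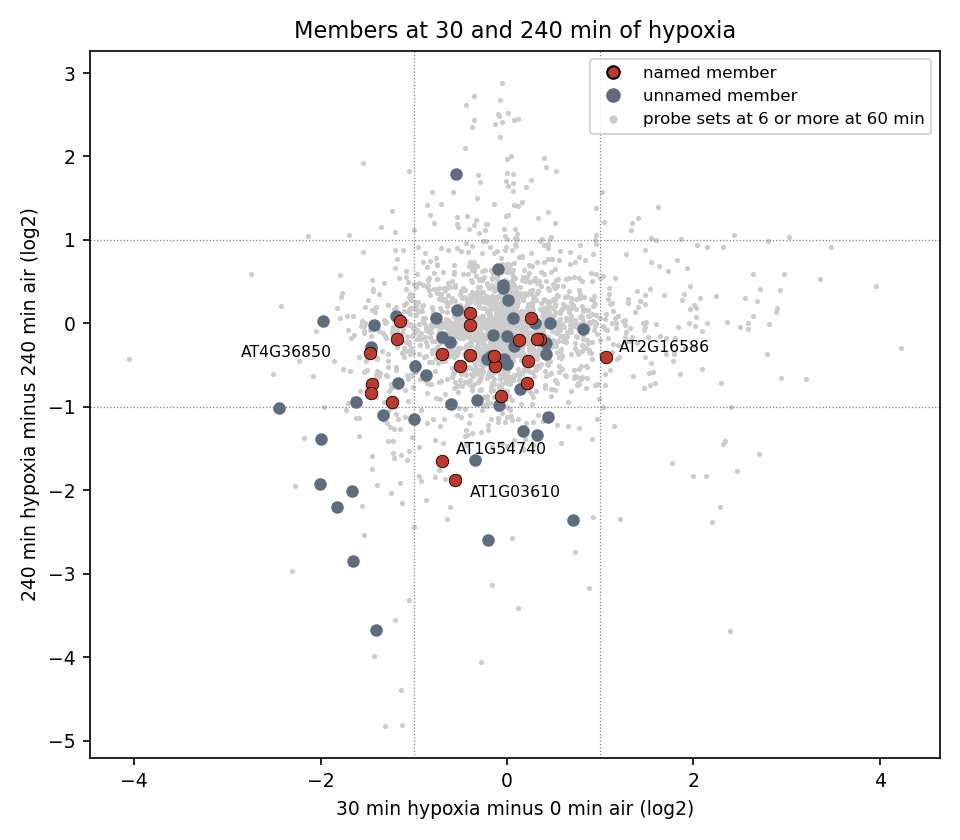
Each point is 1 probe set, placed by its difference at 30 min of hypoxia from 0 min air (horizontal, log2) and at 240 min of hypoxia from 240 min air (vertical, log2), with dotted lines at -1 and 1. The 23 named (red) and 50 unnamed (dark grey) members extend to the lower left, where 8 unnamed members lie beyond -1 on both axes, among the 2152 probe sets at 6 or more at 60 min (light grey).

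In air, 45 of 73 members differed by less than 0.3 between 240 and 0 min, or 61.6%, where 79.7% of the probe sets at 6 or more at 60 min did. Their median difference was 0.10, against 0 over those probe sets. At 240 min of air 5 of 71 were higher than at 0 min by 1 or more, or 7.04%, where 0.338% of the probe sets with enough level were, and 0 were lower by as much, where 0.225% were. The rule used both air arrays, so these shares are not independent of it and are no separate finding. AT2G16586 was the named one of the 5. The genes PDC2 and AT4G27450, which the rule left out by name, differed in the same direction in air, by 1.16 and 1.36. Of the others left out, AT3G15450 read 10.97 and 12.12 at 0 and 240 min of air. WRKY53 read 4.89 and 5.12, and MCCA 5.35 and 5.58, whereas AT5G39580 went the other way, at 5.78 and 5.58.

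The type of probe set and the chromosome were not criteria of the rule, but leaving genes out by name changed the chromosome counts. Of the genes left out, WRKY53 and AT4G27450 lie on chromosome 4, and PDC2 and AT5G39580 on chromosome 5. MCCA lies on chromosome 1 and AT3G15450 on chromosome 3. The chromosome counts below are therefore not independent of the rule. Probe sets with the suffix _s_at made up 27 of 73, or 37.0%, compared with 24.8% of the probe sets at 6 or more at 60 min and 17.3% of all. By chromosome, 11 of the 22 named genes lie on chromosome 2, 8 on chromosome 1 and 1 each on chromosomes 3, 4 and 5. Of the 788 named genes on the array with a probe set at 6 or more at 60 min, 37.6% lie on chromosome 2, 22.5% on chromosome 1 and 27.8% on chromosome 4. The level in 0 min air, which the rule did use, ranged from 4.72 to 12.2 over the members, with a median of 7.33, where the probe sets at 6 or more at 60 min had a median of 7.49.

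For the lists of related pathways, a gene counts as measured only where a named probe set reads it. The list of sugar starvation and SnRK1 genes had 4 of 39 genes measured, and 1, AT1G21680, was higher than 0 min air by 1 or more at 60 min. As a member it was chosen for a high 60 min reading. The other 3 stayed under 1. ETFQO, which passes electrons from branched-chain amino acid breakdown to the respiratory chain, was higher by 0.91. AT2G32150 was higher by 0.58 and MCCB, a subunit of methylcrotonyl-CoA carboxylase, by 0.07. MCCA and AT3G15450, which met the rule and were left out by name, are not among these 4 genes. MCCA read 5.64, 7.28 and 5.33 in hypoxia, against 5.35 and 5.58 in air. AT3G15450 read 11.70, 13.43 and 9.38 in hypoxia, against 10.97 and 12.12 in air. Of the list of autophagy and proteolysis genes, 14 of 24 were measured and 0 differed from 0 min air by 1 at 60 min, with a median of 0.18. ATG8E, a ubiquitin-like protein of autophagosomes, was higher by 0.87 at 60 min but by 0.92 already at 30 min, ATG8C by 0.73 and 0.20, and ATG8F by 0.34 and 0.30. GAMMA-VPE, a protease of the vacuole, was higher by 0.31 at 60 min and 0.59 at 30 min. The amino acid breakdown gene AT4G33150 had a difference of 0 at 60 min, and the ethylene signalling factor EIN3 was at -0.25. Of 25 clock and evening genes 0 were measured. In the low-oxygen core list, with 5 of 43 measured, the median at 60 min was 1.18 against 0 min air, but 0.71 against mean air. It was 0.85 against 0 min air without PDC2 and AT4G27450, which met the rule and were left out by name. At 30 min all 5 were below 0 min air, with a median of -0.25. Of these, 2 were lower by 1 or more, where 5.31% of the probe sets with enough level were. All 5 were also below 240 min air at 240 min, and 3 were lower by 1 or more, where 3.52% were. Their median there was -1.48, or -0.90 against mean air. Without PDC2 and AT4G27450, whose 240 min readings the rule held below the 60 min ones, it was -0.44 against 240 min air. AT4G33560 read 8.48 at 60 min of hypoxia, against 7.30 at 0 min and 8.63 at 240 min of air, and thus lay between both air arrays. Against 0 and 240 min of air, the 60 min reading of PDC2 differed by 2.07 and 0.91, that of AT4G27450 by 2.82 and 1.46, that of AT2G17850 by 0.85 and 0.56, and that of AT4G17670 by 0.01 and 0.12.

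Just inside the 0.7 margin were HPR with a gap of 0.704, 15591_s_at with 0.720 and 16996_s_at with 0.724. Just outside it were MTP11, a manganese transporter, with 0.6997, THIC, an enzyme of thiamine synthesis, with 0.696, and AT1G11820 with 0.696. MTP11 read 5.52, 6.47 and 5.27 in hypoxia, against 5.77 and 5.53 in air, and THIC read 5.06, 6.81 and 6.11, against 5.44 and 5.78.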

How the data were processed

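The authors deposited 1 table of log2 values from 5 Affymetrix arrays. Per the submitters' processing notes, RMA produced them. RMA subtracts background and quantile-normalizes, so differences near the floor of about 4 to 5 are compressed. Column medians ran from 5.12 to 5.14, and no scaling was added. The 50 control probe sets were set apart from the other 8247, of which a platform annotation listed 3864. It gave several genes for 70, and 3784 matched 1 locus of the TAIR10.1 RefSeq table, or 3592 genes. No coordinates are given, as no source states a build for the probes.

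With 1 array per treatment and time, no test was made. Comparisons count differences of 1 or more (log2) among probe sets at or above the array median in either array. The margin of 0.7 was applied to all 4 other arrays, since the clause on the 30 min array would otherwise be redundant. A gene left out by name could be recognised only where its probe set is named.

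Members and lists were chosen with earlier results of these data known. Genes named are every member with 1 gene, measured list genes (the 4 furthest from 0 min air at 60 min in lists of over 5) and 3 probe sets on each side of the margin. Of several probe sets, lists used the brightest. The code of the rule was tried on simulated data with planted 60 min values, using Python 3.11.15 and pandas 2.3.3. Its noise was smaller than that between the real air arrays, so it does not show how often noise alone meets the rule.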

Additional observations from a re-analysis of the deposited data

Results flagged for a closer look

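Some named members stood above mean air by 1 or more at 60 min of hypoxia and below air by 1 or more at another time. Each reading comes from 1 array, and no test of the change in direction could be made. AT1G03610 was at -1.88 and AT1G54740 at -1.65 at 240 min of hypoxia against 240 min air. At 30 min of hypoxia against 0 min air, AT4G36850 was at -1.47, CP5 at -1.23, AT3G52070 at -1.17 and AT2G37220 at -1.15. The second probe set of CP5 was not above air at 60 min.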

How the results depend on the processing

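The number of members was 73 in the main setting and 40 with a margin of 1.0, which by construction admits fewer; the 11 other alternatives gave 63 to 97. Quantile normalization again kept 72 of the 73, and 63 remained with 0 min air only. The margin of 0.7 asked of the air arrays alone gave 87. The members' medians at 30, 60 and 240 min and in air moved by less than 0.22, the SD of the differences between the air arrays, under each alternative tried. At 240 min against air, the median of the sugar starvation list was 0.0237 against mean air (-0.0479 against 240 min air), AT1G21680 was at -0.10 and AT2G37220 at -0.0314 after quantile normalization again, and AT2G16586 was at 0.265 and AT1G21670 at 0.0803 against mean air; these 5 turned direction, and the cause was not tested. No paired analysis was possible because each group has 1 array and the labels carry no replicate numbers. Promoter motifs were not run, as no promoter sequences were used here. All differences rest on single arrays, and readings under about 5.5, as in 10 members at 30 min and 11 at 240 min of hypoxia, lie near the floor of the scale.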

Other observations

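Exactly equal values recur in the deposited table. Both air arrays held the same value for 614 of 8247 probe sets, or 7.45%, and for 6 of the 73 members, F2KP, AT2G37220, AT2G26340 and the brighter probe set of AT2G30600 among them. The 60 min hypoxic and 0 min air arrays held equal values for 502 probe sets. The origin of the equal values was not tested. Equal air values of a member are therefore not read here as a close match of the air samples.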
